A study of Mus musculus with 2 samples.

Results

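D cyclins, CDK inhibitors and 2 proliferation markers were followed across the cell types of aged mouse muscle. The 10 genes were chosen by symbol, and all 10 were found among the 32285 genes of the count tables: Ccnd1, Ccnd2, Ccnd3, Cdkn1a, Cdkn1b, Cdkn1c, Cdkn2a, Cdkn2b, Mki67 and Top2a. Droplet-based single-cell RNA-Seq had been performed on hindlimb muscle of 24-month-old female wild-type C57Bl/6J mice. For the ATRA+agonist library, muscle had been injected 3 times with ATRA (all-trans retinoic acid) together with CD3254, which activates RXRα, and BMS961, which activates RARγ. For the DMSO vehicle library the injections held only the solvent. Each library pooled 2 mice that cannot be told apart. With 1 library per group no test was possible, and what follows sets 1 library against the other.

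The D cyclins (Ccnd1, Ccnd2 and Ccnd3) activate CDK4 and CDK6, which phosphorylate the retinoblastoma protein and commit a cell to S phase. The CIP/KIP inhibitors p21 (Cdkn1a), p27 (Cdkn1b) and p57 (Cdkn1c) act on cyclin-CDK complexes broadly, while the INK4 inhibitors p16 (Cdkn2a) and p15 (Cdkn2b) bind CDK4 and CDK6 and are widely used as markers of senescence. Mki67, a coat protein of mitotic chromosomes, and Top2a, the topoisomerase that untangles replicated DNA, are transcribed mainly in S, G2 and M phase. Most cells of resting muscle do not divide, and muscle stem cells (MuSCs) remain quiescent until they are activated.

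The library totals were 65197625 UMIs (unique molecular identifiers, each 1 captured RNA molecule) over 10444 barcodes with ATRA+agonist and 109343486 over 17394 barcodes with vehicle. After filtering, 6907 and 6953 cells remained, with medians of 4660 and 4796 UMIs. They formed 26 clusters, of which all but 4 took a name from marker genes, as "X-like" classes, and 12 classes held at least 50 cells in each library. The genes of interest had been left out of the clustering. Levels are in CPM, the UMIs of a gene over all UMIs of the class, scaled to the same total for every class and library, and ratios are ATRA+agonist over vehicle on the log2 scale. Intervals are exact 95% intervals that cover counting error only. Of the kept barcodes, 9 occurred in both libraries.

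The promoters of Mki67 and Top2a are shown because these genes had the most similar pair of patterns among the 10, as given at the end. The 250 bases before the RefSeq start sites (GRCm38.p6) lie at chr7:135716380-135716629 for Mki67 and chr11:99024190-99024439 for Top2a, both on the minus strand. Capitals mark the CCAAT box (CCAAT or ATTGG), which NF-Y binds, and the CHR element (TTTGAA or TTCAAA), through which the DREAM complex represses G2 and M phase genes in resting cells. E2F sites (TTTCCCGC, TTTCGCGC, TTTGCCGC or TTTGGCGC, on either strand) were searched as well.

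Mki67: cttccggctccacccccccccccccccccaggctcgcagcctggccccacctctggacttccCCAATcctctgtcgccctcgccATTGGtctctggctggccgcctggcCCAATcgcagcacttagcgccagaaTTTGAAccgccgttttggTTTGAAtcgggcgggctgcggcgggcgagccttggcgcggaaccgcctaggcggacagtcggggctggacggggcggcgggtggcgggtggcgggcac

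Top2a: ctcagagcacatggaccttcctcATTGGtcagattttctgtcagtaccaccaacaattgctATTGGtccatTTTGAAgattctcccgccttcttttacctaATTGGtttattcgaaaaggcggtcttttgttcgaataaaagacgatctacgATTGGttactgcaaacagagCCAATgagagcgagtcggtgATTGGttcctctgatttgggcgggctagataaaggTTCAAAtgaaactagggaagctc

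The Mki67 window held 3 CCAAT boxes and 2 CHR elements, and the Top2a window held 6 and 2. Neither held an E2F site. Among 32851 mouse promoters of the same length, 2.79% had at least 3 CCAAT boxes and 1.81% had at least 2 CHR elements. For the other members, 5 were in the promoter table, and the windows of Cdkn1b (2 CCAAT boxes), Ccnd3 (1 box at 1 of its 2 starts) Cdkn2b (1 CHR element) and Cdkn2a (1 E2F site at 1 of its 2 starts, a motif in 1.86% of the promoters) had a match. These are matches of letters and not measured binding. Ccnd1, Ccnd2 and Cdkn1c were not in the table.

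The 3 D cyclins differed in their pattern over the 12 classes, although Ccnd2 and Ccnd3 shared the highest class with ATRA+agonist. Ccnd1 was highest in glial-like cells and low in lymphocytes, Ccnd2 was highest in T or NK-like cells and had its lowest level in MuSC-like cells, and Ccnd3 was counted in all 12 classes. Each gene is compared with itself across classes, since levels of different genes are not comparable in 3-prime counts.

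Glial-like cells had 287 CPM of Ccnd1 with ATRA+agonist (252 to 326) and 276 CPM with vehicle. The next named classes were MuSC-like cells with 117 CPM and monocyte or macrophage-like cells with 103 CPM in the ATRA+agonist library, whose intervals overlapped, and endothelial-like cells with 88.1 CPM in the vehicle library. An unnamed cluster with markers of both dendritic and mast cells, led by Cma1 and Cd209a, reached 217 and 177 CPM. Another unnamed cluster, led by Rflnb and Unc45b and of low depth, had 259 CPM (219 to 304) and 332 CPM (277 to 394). At the other end, T or NK-like cells held 0 and 1 Ccnd1 UMIs, and FAP-like cells (fibro-adipogenic progenitors) 10.1 and 12.4 CPM.

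Ccnd2 had the reverse placement in lymphocytes. T or NK-like cells had 310 CPM with ATRA+agonist (287 to 334) and 390 CPM with vehicle (345 to 439), the highest of the 12 classes in both libraries. Within the endothelial-like class, the cluster led by Sema3g and Gja5, known as arterial genes, had 418 and 452 CPM, against 163 and 155 CPM in the cluster led by Aqp1 and Kdr. In MuSC-like cells only 6 and 11 Ccnd2 UMIs were counted, 1.80 CPM (0.661 to 3.92) and 2.77 CPM (1.38 to 4.96), the lowest of the 12 classes in both libraries.

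Ccnd3 ranged from 90.0 to 306 CPM with ATRA+agonist and from 127 to 530 CPM with vehicle, with its lowest level in smooth muscle or pericyte-like cells in both, where the intervals of endothelial-like and FAP-like cells overlapped. Of the 12 classes, T or NK-like cells were highest with ATRA+agonist and B-like cells with vehicle. In MuSC-like cells it was 236 and 318 CPM.

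**Figure D1:**
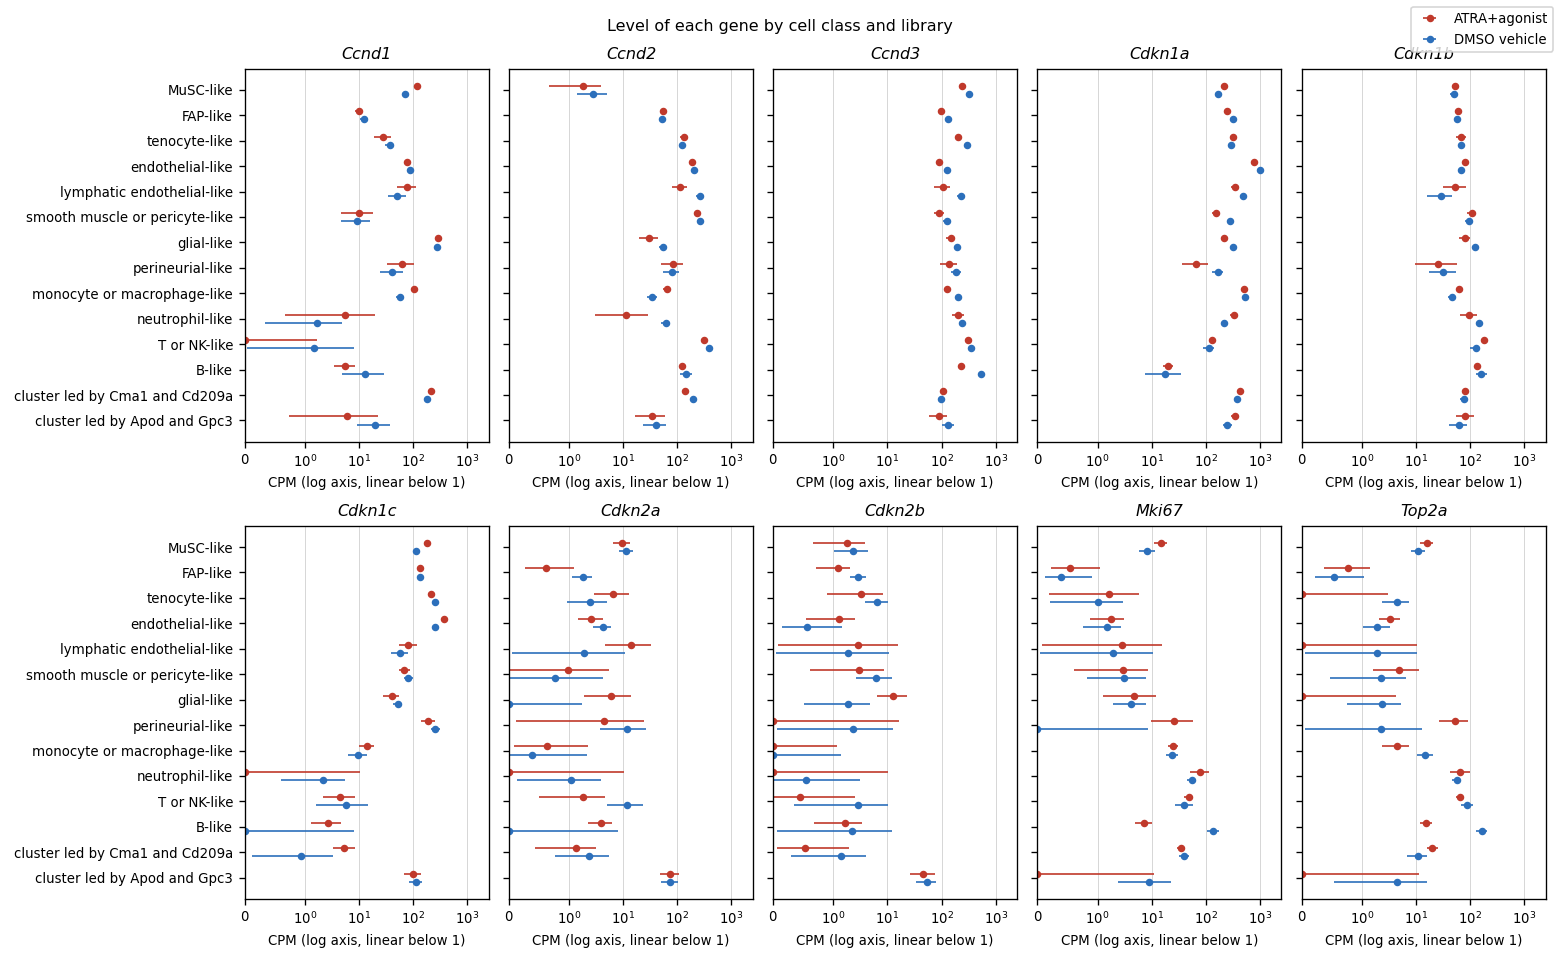
Level of each gene (x axis, CPM on a log axis that is linear below 1) in 12 cell classes and 2 unnamed clusters, with points for the ATRA+agonist (red) and DMSO vehicle (blue) libraries and bars for exact 95% Poisson intervals. Ccnd2 is near 0 in MuSC-like cells at 1.80 and 2.77 CPM, and Cdkn2a and Cdkn2b are highest in the cluster led by Apod and Gpc3.

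Among the CIP/KIP inhibitors, Cdkn1a was highest in endothelial-like cells, Cdkn1b was counted in all 12 classes, and Cdkn1c had its lowest levels in blood cells. Cdkn1a, a target of p53, stood at 772 CPM with ATRA+agonist (751 to 794) and 1004 CPM with vehicle (981 to 1027) in endothelial-like cells, and was detected in 68.5% and 83.0% of them, or in 59.0% and 72.1% when each cell was thinned to 2000 UMIs. B-like cells had the lowest level, 20.1 and 17.5 CPM. Within the endothelial-like class the arterial-gene cluster had 948 and 1253 CPM.

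Among the 12 classes, Cdkn1b was highest in T or NK-like cells with ATRA+agonist, 180 CPM, and in B-like cells with vehicle, 162 CPM, where the intervals of B-like and neutrophil-like cells overlapped.

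Cdkn1c was highest in endothelial-like cells with ATRA+agonist, 374 CPM (359 to 390). With vehicle the levels of endothelial-like, perineurial-like and tenocyte-like cells, 257, 255 and 253 CPM, had overlapping intervals. Monocyte or macrophage-like, T or NK-like, B-like and neutrophil-like cells were at 13.8 CPM or below in both libraries.

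The next comparison asked which of these genes differed between the libraries. A difference was counted where a gene had at least 50 UMIs in a class over both libraries and the levels differed by at least 1.5-fold. Of 73 pairs of member and class with enough UMIs, 6 were higher and 14 lower with ATRA+agonist, in 9 of the 12 classes. Over the same classes, 8.06% of the 88735 pairs of any gene and class were past this fold upward and 9.23% downward. At 2-fold, 0 of the members' pairs were higher and 9 lower, beside 2.52% and 3.28%. Of the 20 pairs past 1.5-fold, 3 were past it under every processing alternative that gave them a ratio. These were Ccnd1 in MuSC-like cells and Mki67 and Top2a in B-like cells. The other 17 pairs fell short in at least 1, and 9 of them changed direction in at least 1. For Mki67 and Top2a in B-like cells 13 alternatives gave a ratio, against 15 for Ccnd3 there. Their vehicle UMIs lay in 6 and 8 cells. Leaving out the 10 richest cells, or cells with a marker UMI, therefore left no ratio, and these pairs were not tested that way. Tenocyte-like, T or NK-like and endothelial-like cells had no member past 1.5-fold, where 15.2%, 18.7% and 10.3% of all genes tested were.

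**Figure D2:**
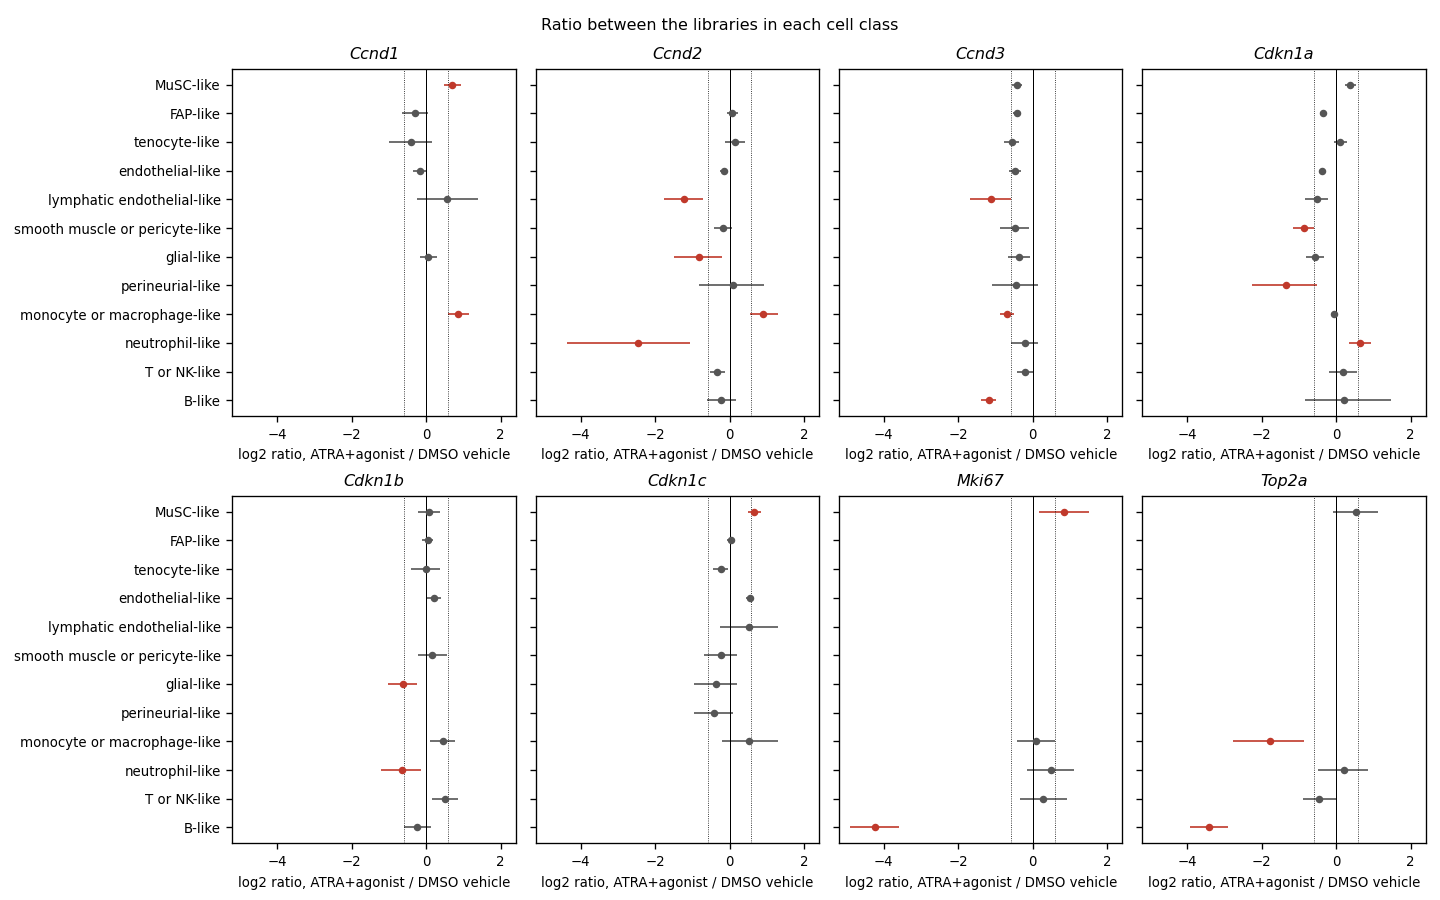
Log2 ratio of ATRA+agonist over DMSO vehicle (x axis) for 8 genes in each cell class with at least 50 UMIs, with exact 95% intervals for counting error, dotted lines at 1.5-fold and red points past it. Ccnd3 lies below 0 in all 12 classes, between -1.19 in B-like and -0.22 in T or NK-like cells.

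Ccnd3 was lower with ATRA+agonist in all 12 classes. The log2 ratio was -0.43 in MuSC-like cells (-0.56 to -0.30), -0.43 in FAP-like cells, -0.48 in endothelial-like cells and -0.57 in tenocyte-like cells, none of which passed 1.5-fold. It passed in monocyte or macrophage-like cells at -0.70, in lymphatic endothelial-like cells at -1.13 and in B-like cells at -1.19, but fell short at -0.44 in the first at a resolution of 0.4 and at -0.56 in B-like cells at a doublet rate of 15%. The median of all genes tested in a class lay between -0.13 and 0.08. The interval lay below 0 in 10 of the 12 classes, the exceptions being neutrophil-like and perineurial-like cells. In 8 classes the direction held under every processing alternative that was run, and in the T or NK-like, neutrophil-like, perineurial-like and lymphatic endothelial-like classes it did not.

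In MuSC-like cells, 3 of the 8 members with at least 50 UMIs were higher with ATRA+agonist and 0 were lower. Of the 9311 genes tested in these cells, 6.35% were higher and 4.55% lower. At 2-fold 0 members were higher, beside 1.03% of the genes. The 3 past 1.5-fold were Ccnd1, Cdkn1c and Mki67, and they differed in how many cells carried them.

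Ccnd1 (GRCm38 chr7:144929931-144939925, minus strand, protein coding) had 388 UMIs in 414 ATRA+agonist cells, 117 CPM (105 to 129), and 285 UMIs in 531 vehicle cells, 71.8 CPM (63.7 to 80.6). The log2 ratio was 0.70 (0.47 to 0.92), and 28.5% against 16.4% of the cells had a Ccnd1 UMI (12.2% against 6.45% when thinned to 2000 UMIs). In T or NK-like cells, at 6159 and 5827.5 median UMIs close to the 7448 and 6463 of MuSC-like cells, the share was 0% and 0.926%. The ratio lay between 0.59 and 1.21 over all alternatives. Immediate early genes, which respond to tissue dissociation among other stimuli, summed to 20265 CPM in these ATRA+agonist cells and 14568 CPM in the vehicle cells, with Fos at 0.97 and Jun at 0.67 (log2 ratios). Their part in the Ccnd1 difference was not tested.

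For Cdkn1c (GRCm38 chr7:143458339-143461050, minus strand, protein coding), known to rise when myoblasts leave the cycle and differentiate, the difference came from few cells. The level was 180 CPM with ATRA+agonist (166 to 195) and 114 CPM with vehicle (104 to 125), a log2 ratio of 0.66, although fewer of the ATRA+agonist cells had a Cdkn1c UMI (17.9% against 21.7%, intervals that overlapped). The 10 cells with the most Cdkn1c held 79.0% of its 601 UMIs in the ATRA+agonist library and 54.9% of its 452 UMIs in the vehicle library. Of these 10 cells, 7 and 1 also held UMIs of Myog, the transcription factor of terminal myogenic differentiation. UMIs of Pax7, a MuSC marker, were in 5 and 10 of them.

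Cells with a Myog UMI numbered 16 of 414 with ATRA+agonist and 2 of 531 with vehicle. The 16 had 1702 CPM of Cdkn1c (1540 to 1878) and the 2 had 2774 CPM (2222 to 3422). In the cells without a Myog UMI, Cdkn1c was 64.9 CPM (56.3 to 74.6) and 92.6 CPM (83.4 to 103), a log2 ratio of -0.51. The direction between the libraries was therefore opposite with and without these cells. Ccnd1 was also higher in the cells with a Myog UMI, 251 and 191 CPM against 106 and 70.8 CPM, but its direction was the same without them. Without these cells the log2 ratio of Ccnd1 was 0.586, the lowest of its alternatives and only just past 1.5-fold. The split by Myog was made after the data had been seen.

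Cdkn1c and Myog were also found together in barcodes with over 5000 genes, which the filter removed. These numbered 76 and 75, with medians of 24275.5 and 26515 UMIs, and held 1115 Cdkn1c UMIs with ATRA+agonist and 261 with vehicle. In the main processing they had no class and no doublet score. In the ATRA+agonist library 9 of the 76 had a Myog UMI and these held 69.6% of the Cdkn1c UMIs. In the vehicle library 1 of the 75 did, with 24.1%.

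**Figure D3:**
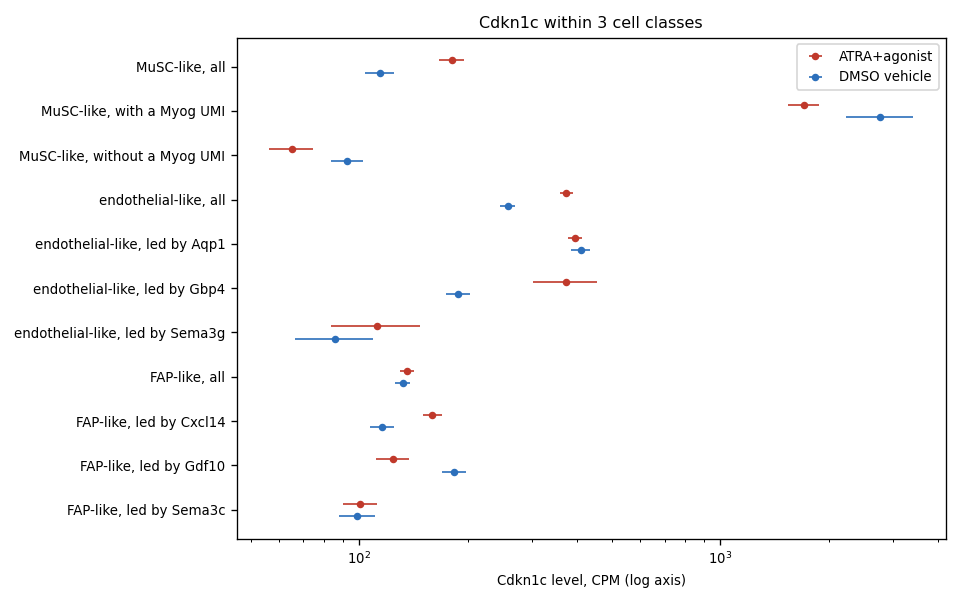
Cdkn1c level (x axis, CPM, log axis) in the ATRA+agonist (red) and DMSO vehicle (blue) libraries for MuSC-like, endothelial-like and FAP-like cells and for parts of these classes, with exact 95% Poisson intervals. MuSC-like cells with a Myog UMI stand at 1702 and 2774 CPM, against 64.9 and 92.6 CPM in those without.

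Mki67 in MuSC-like cells was 14.7 CPM (10.9 to 19.5) from 49 UMIs with ATRA+agonist and 8.31 CPM (5.72 to 11.7) from 33 UMIs with vehicle. These UMIs lay in 17 and 5 cells, and the 4 cells with the most held 67.3% and 97.0% of them. The log2 ratio of 0.82 (0.16 to 1.51) thus rests on few cells and was 0.55, short of the fold, without the cells with a Myog UMI. Top2a, at 0.52, had an interval that included 0.

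The other members in MuSC-like cells were Cdkn1a at 0.38 (0.23 to 0.54), Cdkn1b at 0.08 (-0.22 to 0.38) and Cdkn2a at -0.24 (-0.94 to 0.45), all short of 1.5-fold. Of 12 genes linked to MuSC quiescence, 1 was past the fold upward (Pax7, 0.68) and 2 downward (Foxo3, -0.93, and Hey1, -0.61), with a list median of 0.05 beside 0.04 for all genes tested. Hey1 rested on 34 and 62 UMIs, with an interval that included 0 (-1.26 to 0.01). Of 14 p53 target genes tested, 3 were past the fold upward and 0 downward, beside 6.35% and 4.55% of all genes tested. Those upward included Btg2 (0.80), an antiproliferative gene that also responds early to stimuli, and Ccng1 (0.76). The remaining gene upward rested on 33 and 25 UMIs, with an interval that included 0 (-0.14 to 1.47). The 2 lowest p53 targets were Trp53inp1 at -0.42 (-0.90 to 0.05) and Eda2r at -0.39 (-0.70 to -0.08). Among 10 tested genes of the senescence-associated secretome, Cxcl1 was higher (0.59) and Plaur lower (-1.17), with a median of -0.08.

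The other regulators of the cycle went in both directions in these cells. Of 4 other cyclins and CDKs with enough UMIs, Ccnb2, the mitotic cyclin B2, was higher (0.85) and Cdk6 lower (-0.78). E2F factors had 1 of 7 higher, E2f2 (1.34), and 1 lower, Tfdp2 (-0.73). Of 7 further CDK inhibitors, pocket proteins and DREAM subunits, 0 were higher and Lin54 was lower (-0.76). S phase genes had 1 of 11 higher (Tyms, 0.77) and 0 lower, and G2 and M phase genes had 2 of 6 higher, Cenpa (1.95) and Ube2c (1.46), and 1 lower, Smc4 (-0.60). The medians of these lists, from -0.01 to 0.38, stood beside 0.04 for all genes tested. The higher genes rested on few UMIs with ATRA+agonist and vehicle: 47 and 31 for Ccnb2, 34 and 16 for E2f2, 33 and 23 for Tyms. Cenpa had 42 and 13 UMIs and Ube2c 37 and 16, and the interval of Tyms included 0 (-0.04 to 1.61). Glucocorticoid-induced genes had 0 of 8 higher and 3 lower, among them Zbtb16 (-1.14) and Tsc22d3 (-0.95).

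In monocyte or macrophage-like cells the D cyclins differed between the libraries in both directions. With ATRA+agonist, Ccnd1 stood at 103 CPM and with vehicle at 56.7 CPM (log2 ratio 0.86, 0.58 to 1.15), and Ccnd2 at 63.4 and 33.7 CPM (0.91, 0.54 to 1.29). Ccnd3 was lower, 125 against 202 CPM. Top2a was lower as well, at 4.40 and 14.9 CPM (-1.76), from 14 and 39 UMIs, while Mki67, at 25.1 and 23.8 CPM, had a ratio of 0.08 (-0.42 to 0.58). So 2 of 8 members were past 1.5-fold upward, beside 5.13% of all genes tested, and 2 downward, beside 3.83%. At a clustering resolution of 0.4 none of the 4 was past the fold, with 0.58 for Ccnd1, 0.02 for Ccnd2, -0.44 for Ccnd3 and -0.02 for Top2a. Ccnd2 fell short in 6 of 15 alternatives, and cells assigned by their own marker UMIs gave -0.22.

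T or NK-like cells, the class with the highest Ccnd2, had 0 of 6 members past the fold. Cdkn1b levels were 180 CPM in the ATRA+agonist library (163 to 198) and 127 CPM in the vehicle library (102 to 157), which gave 0.50 on the log2 scale (0.16 to 0.85), and Ccnd2 was at -0.33 (-0.54 to -0.12). Mki67 and Top2a had intervals that included 0.

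Cdkn1a was lower with ATRA+agonist in smooth muscle or pericyte-like cells, 153 CPM (130 to 179) against 281 CPM (253 to 312), a log2 ratio of -0.88 (-1.16 to -0.60). It was the 1 member of 5 past the fold there, beside 7.1% of all genes that were lower. In endothelial-like and FAP-like cells it was lower by less, -0.38 (-0.43 to -0.33) and -0.37 (-0.43 to -0.30). The direction in these 3 classes was the same in every alternative, while the value in smooth muscle or pericyte-like cells fell short of the fold in 2 of 15, at -0.54 and -0.57. MuSC-like cells, at 0.38, were on the other side of 0, and the difference between classes was not tested.

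In endothelial-like cells, where 0 of 6 members passed the fold, the ratio of Cdkn1c, 0.54 (0.45 to 0.63), differed between clusters. In the largest cluster, led by Aqp1, the levels were 396 and 410 CPM (-0.05, -0.16 to 0.06). A cluster led by Gbp4, Cd274 and Ubd, which are interferon-induced genes, held 73 ATRA+agonist and 998 vehicle cells and had 373 and 188 CPM. In the same cluster Ccnd1 was 30.5 and 84.7 CPM (-1.47, -2.70 to -0.48), Ccnd2 309 and 192 CPM (0.68, 0.33 to 1.01) and Ccnd3 68.6 and 137 CPM. In the Aqp1-led cluster these cyclins were at -0.39, 0.07 and -0.29, short of 1.5-fold. The Cdkn1c level of FAP-like cells, 135 and 132 CPM, was made of clusters with ratios of opposite sign, 0.46 in the cluster led by Cxcl14, -0.57 in that led by Gdf10 and 0.03 in that led by Sema3c.

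Glial-like cells had 2 of 6 members past the fold, both lower, beside 8% of all genes, Ccnd2 at -0.83 and Cdkn1b at -0.63. A glial-like cluster of 1 and 58 cells entered both values. In the other glial-like clusters, led by Kcna1 and by Gm20754, Ccnd2 was at -0.03 (-1.38 to 1.21) and -1.12 (-1.95 to -0.36), and it fell short of the fold without doublet removal (-0.47) and as a mean of log-normalized values (-0.17). In the same clusters Cdkn1b was at -0.22 (-0.85 to 0.39) and 0.46 (-0.18 to 1.08).

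FAP-like cells had 1 of 7 past the fold, Cdkn2b at -1.22 from 16 and 37 UMIs, beside 6.12% of all genes that were lower. Of these UMIs, 8 and 30 were in the cluster led by Cxcl14, 6 and 7 in that led by Gdf10, and 2 and 0 in that led by Sema3c. The direction was opposite at a doublet rate of 15% (0.12) and without a maximum of genes (0.48). In lymphatic endothelial-like cells Ccnd2 (-1.23) and Ccnd3 (-1.13) were 2 of 5, beside 19.9% of all genes that were lower, and in perineurial-like cells Cdkn1a (-1.34) was 1 of 4, beside 34%. In neutrophil-like cells Cdkn1a (0.64) was higher, 1 of 6 beside 20.5%, and Ccnd2 (-2.46) and Cdkn1b (-0.65) were lower, 2 of 6 beside 21%. In the perineurial-like and neutrophil-like cells the members' shares stand near the background, and in the lymphatic endothelial-like, perineurial-like and neutrophil-like classes single members reversed with the processing.

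B-like cells had 3 of 6 members past the fold, all lower, beside 16.9% of all genes. Ccnd3 was 233 CPM with ATRA+agonist (219 to 248) and 530 CPM with vehicle (466 to 601). A B-like cluster, led by Cacna1e and Il5ra, held 83 ATRA+agonist and 0 vehicle cells, and in the other the ratio of Ccnd3 was -1.08. Mki67 was 7.18 and 135 CPM, and Top2a 15.6 and 166 CPM. In the vehicle library, however, 4 of 79 B-like cells held 96.8% of the Mki67 UMIs and 4 held 94.7% of the Top2a UMIs.

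The INK4 inhibitors had the fewest UMIs of the 10 genes, and both had their highest level in the same small cluster. Cdkn2a was counted 127 times in the ATRA+agonist library and 161 times in the vehicle library, and Cdkn2b 77 and 116 times. The genes, both protein coding, are neighbours on chromosome 4 (GRCm38, minus strand), at chr4:89274471-89294653 and chr4:89306299-89311039, with 11645 bases between them. The count of Cdkn2a joins transcripts for p16 and for the unrelated protein p19Arf, which share exons.

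That cluster held 102 cells, 40 with ATRA+agonist and 62 with vehicle. Cdkn2a was 73.2 CPM (46.9 to 109) and 72.8 CPM (50.1 to 102), and Cdkn2b 45.8 CPM (25.6 to 75.5) and 52.9 CPM (33.9 to 78.8), with overlapping intervals between the libraries. The cluster made up 0.736% of the cells and held 19.8% of the Cdkn2a and 20.2% of the Cdkn2b UMIs. In the other 25 clusters, both libraries joined, Cdkn2a reached at most 12.9 CPM and Cdkn2b at most 10.7 CPM.

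In these 102 cells, 24 had a Cdkn2a UMI, 24 had a Cdkn2b UMI and 13 had both. The 4 cells with the most held 75.0% of the ATRA+agonist and 57.6% of the vehicle Cdkn2a UMIs. Mki67 was counted 0 and 4 times there, Cdkn1a stood at 348 and 249 CPM, and Cdkn1c at 97.6 and 112 CPM, none of which was the highest among clusters.

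The cluster was left unnamed, since its 10 leading genes held Tenm2, a perineurial marker, and 0 of the FAP markers. It was led by Tenm2, Apod, Gpc3, Cp and Col28a1, had 5 of 8 FAP markers, 2 of 7 perineurial, 2 of 8 glial, 2 of 6 lymphatic endothelial and 1 of 7 neutrophil markers enriched, and 0 markers of the other classes. Its FAP markers summed to 37551 CPM, against 8795 CPM in the other cells. Its perineurial markers summed to 1183 CPM, against 72.4 CPM. The clustering mattered for this result. In 5 alternatives the cluster with the highest Cdkn2a level was larger, with 186 to 386 cells of which 86 to 102 were these, and stood at 33.4 to 41.8 CPM. At a resolution of 0.4 the cluster with the highest Cdkn2a level was another, which shared 0 cells with this one and had 12.9 CPM.

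**Figure D4:**
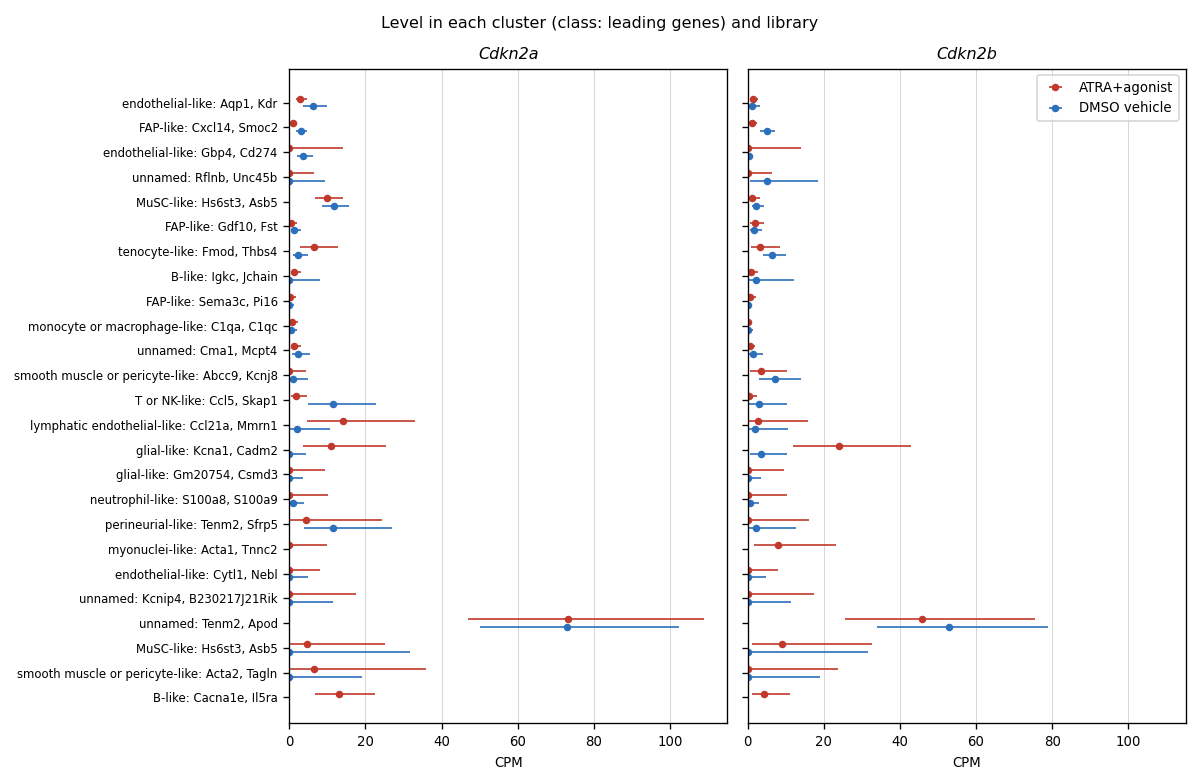
Level of Cdkn2a and Cdkn2b (x axis, CPM) in every cluster except a glial-like one of 59 cells, labelled by class and first leading genes, for the ATRA+agonist (red) and DMSO vehicle (blue) libraries with at least 20 cells, with exact 95% Poisson intervals. The unnamed cluster led by Tenm2 and Apod lies at 73.2 and 72.8 CPM for Cdkn2a, apart from all others shown.

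MuSC-like cells held more Cdkn2a UMIs in all, at a lower level, and their main cluster, led by Hs6st3 and Asb5, had 26.4% of them. They had 9.61 CPM (6.57 to 13.6) with ATRA+agonist and 11.3 CPM (8.27 to 15.2) with vehicle, from 32 and 45 UMIs in 21 and 24 cells. This was 5.07% and 4.52% of the cells, or 1.25% and 1.56% when thinned to 2000 UMIs, shares that overlapped within counting error. Endothelial-like cells had a UMI in 0.689% and 1.14%, and myonuclei-like cells in 0 of 229, which by a limit of 3 counts allows up to 1.31% of cells with a UMI at their low depth. For Cdkn2b, glial-like cells had 12.9 and 1.86 CPM from 11 and 4 UMIs. Median depths were 7448 and 6463 UMIs in MuSC-like, 3361 and 3576 in endothelial-like and 1086 in myonuclei-like cells.

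Cells that carried proliferation markers were rare. Cells with at least 2 UMIs of Mki67 and Top2a together numbered 103 of 6907 with ATRA+agonist, 1.49% (1.22 to 1.81), and 79 of 6953 with vehicle, 1.14% (0.901 to 1.41). Their intervals, exact Clopper-Pearson, overlapped. When each cell was thinned to 2000 UMIs, leaving out shallower cells, the shares were 0.447% of 5597 and 0.362% of 6081.

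Other cell cycle genes were higher in these cells. Genes of G2 and M phase summed to 2566 and 2720 CPM, against 271 and 251 CPM in cells with no UMI of either marker. S phase genes summed to 1096 and 1528 CPM, against 437 and 425 CPM. The called cells were also deeper, with medians of 14143 and 12080 UMIs against 4478 and 4700. In MuSC-like cells, Ccnd3 was 153 and 172 CPM in the called cells, which were few (numbers below). It was 237 and 319 CPM in MuSC-like cells with no UMI of either marker. Both markers were detected together in 59 cells, of 307 with Mki67 and 277 with Top2a.

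Of the 103 and 79 called cells, 79 and 62 were in B-like, T or NK-like, monocyte or macrophage-like and neutrophil-like cells and the cluster led by Cma1 and Cd209a. This cluster had the highest share with ATRA+agonist, 32 of 338 cells (9.47%, 6.57 to 13.1), and had 16 of 184 (8.70%) with vehicle. T or NK-like cells had 18 of 324 and 6 of 108, both 5.56%. Monocyte or macrophage-like cells had 4.66% and 5.39%. The libraries overlapped within counting error in each of these.

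Neutrophil-like cells had 1 of 60 with ATRA+agonist (1.67%, 0.0422 to 8.94) and 20 of 183 with vehicle (10.9%, 6.80 to 16.4), intervals that overlapped. This cluster was led by S100a8 and also carried Elane, Camp and Ngp, which are genes of neutrophil precursors. In B-like cells the share was 13 of 644 and 4 of 79.

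In MuSC-like cells 9 of 414 were called with ATRA+agonist (2.17%, 0.999 to 4.09) and 4 of 531 with vehicle (0.753%, 0.206 to 1.92). Thinned to 2000 UMIs, 2 of 401 and 1 of 512 remained, so that a difference was not detectable at this depth. Endothelial-like cells were called in 0.287% and 0.217%, FAP-like cells in 3 of 1270 and 0 of 1548, and myonuclei-like cells, whose nuclei have left the cycle and which were found in the ATRA+agonist library alone, in 0 of 229. For the 1548 FAP-like cells a count of 0, by the same limit of 3 counts, allows a called share of up to 0.194%.

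**Figure D5:**
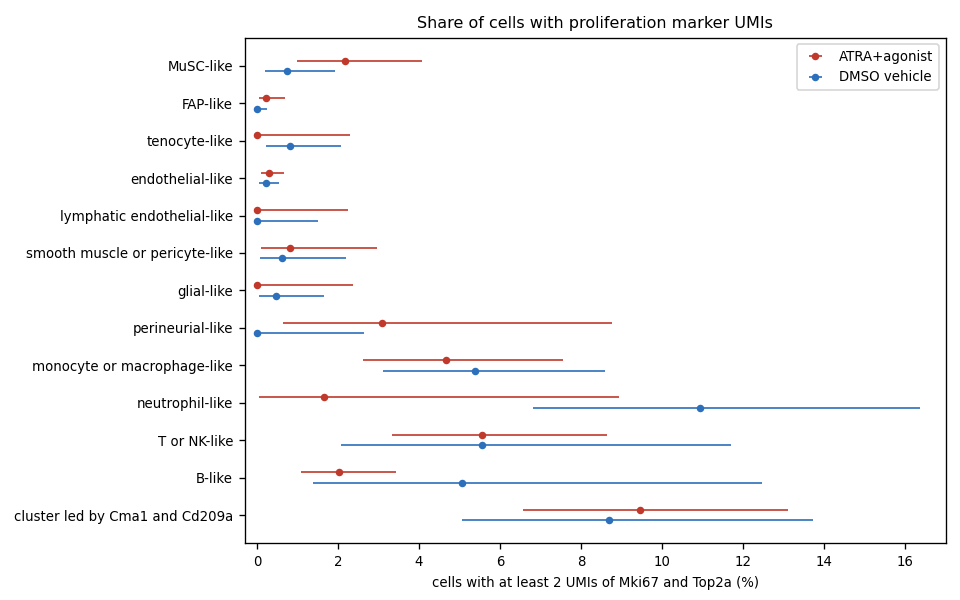
Percent of cells with at least 2 UMIs of Mki67 and Top2a (x axis) in each cell class for the ATRA+agonist (red) and DMSO vehicle (blue) libraries, with exact Clopper-Pearson 95% intervals. MuSC-like cells stand at 2.17% and 0.753%, and the highest shares are in neutrophil-like cells with vehicle and in the cluster led by Cma1 and Cd209a.

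The genes whose pattern over cell classes was most like that of each member were found by Pearson's r of log2(CPM + 10) over 24 pairs of class and library, among 15298 genes with at least 100 UMIs. The 24 points share 2 libraries and differ in depth, and the values are given as a description. Mki67 was most like Top2a (0.93), Birc5 (0.91) and Cdca8 (0.90), and Top2a most like Pclaf (0.95), Mki67 and Cdk1 (0.92). Both thus had other genes of S phase and mitosis as neighbours.

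Cdkn1c was most like Ppic (0.94), Amotl2 (0.93) and Cavin1 (0.93), the last a gene of caveolae. Cdkn1a was most like Ifih1 (0.89) and Parp12 (0.88), both interferon-induced, and Ier3 (0.87). For Ccnd1 the nearest were Cadm1 (0.85), Egr2 (0.85), a regulator of myelination, and Gdpd1 (0.83). The best matches of Ccnd2 (Pced1b, 0.80), Ccnd3 (Cenpq, 0.82), Cdkn1b (Atg101, 0.85), Cdkn2a (Dctd, 0.75) and Cdkn2b (Sfxn4, 0.79) were weaker than for Cdkn1c, Mki67 and Top2a. Cdkn2a and Cdkn2b rest on 288 and 193 UMIs in all.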

How the data were processed

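The authors deposited 1 table of raw UMI counts per gene and barcode for each library. Reads of the droplet libraries, which capture the 3-prime end of transcripts, had been aligned to mm10 (GRCm38) and counted by Cell Ranger 7.2.0. The annotation release and the use of strand in counting were not given in the sources used here, and 7 of the 10 members overlap another annotated gene (GENCODE M21), whose reads could not be told apart without strand.

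Barcodes were kept with 300 to 5000 genes, under 20% mitochondrial and under 0.25% Hbb UMIs. The 7.5% with the highest doublet score per library were removed, in a rebuilt form of the DoubletFinder method. Both libraries were clustered together (2000 variable genes, 30 components, 20 neighbors, Louvain resolution 0.8, python-igraph 0.11.9) without 97 cell cycle and related genes. A cluster took a class name if at least 3 of its markers were enriched 2-fold. It stayed unnamed if its 10 leading genes held more markers of another class than of its own, or if it was of low depth and they held none of its own. Thresholds were set after clusters had been seen, and 4 clusters stayed unnamed, among them 1 of very low depth with all endothelial markers. A difference from the study in any class may come from rebuilt names.

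UMIs were summed per class and library. No test was run, since each group is 1 library and cells are not replicates. The ratio intervals condition on the summed count (scipy 1.17.1). On simulated counts for MuSC-like cells (9311 genes) 98.0% of genes changed by 1 on the log2 scale, and 2.55% of unchanged genes, were past 1.5-fold. The simulation drew summed UMIs with Poisson counting error only, without spread between cells or mice. These shares are therefore not error rates of the measured ratios. All 10 members are reported. From the other lists the 2 highest and 2 lowest genes with at least 50 UMIs in MuSC-like cells were eligible to be named, and for each member the 3 most alike genes. Members and lists were chosen with earlier results of these data known. The alternatives were other doublet, hemoglobin, mitochondrial and gene limits, resolutions of 0.4 and 1.6, cell cycle genes kept for clustering, assignment by own markers, another scaling, means of log-normalized values, thinning to 1000 UMIs, and leaving out cells rich in a gene or in Mki67 and Top2a. Leaving out cells with a Myog UMI was added after the data had been seen. Levels in 1 glial-like cluster are not reported here.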

Additional observations from a re-analysis of the deposited data

Results flagged for a closer look

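Several genes were past 1.5-fold in opposite directions in different cell classes, which drew attention to them. With 1 library per group the difference between classes was not tested. Ccnd2 was higher with ATRA+agonist in monocyte or macrophage-like cells (log2 ratio 0.91) and lower in glial-like (-0.83), lymphatic endothelial-like (-1.23) and neutrophil-like cells (-2.46). Cdkn1a was higher in neutrophil-like cells (0.64) and lower in perineurial-like (-1.34) and smooth muscle or pericyte-like cells (-0.88). Mki67 was higher in MuSC-like cells (0.82) and lower in B-like cells (-4.24), and in both classes few cells held most of its UMIs. Of these values, the ratio of Ccnd2 turned to -0.22 in macrophage-like and 1.76 in neutrophil-like cells under 1 alternative each, that of Cdkn1a to -0.13 in neutrophil-like cells under 1, and that of Cdkn1a in perineurial-like cells was above 0 in 5 of 13.

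Proliferation markers were also found in barcodes that the hemoglobin limit removed, and which entered only the alternative without that limit. At least 2 UMIs of Mki67 and Top2a were in 5 of 357 such barcodes with ATRA+agonist, 1.40% (0.456 to 3.24), and in 47 of 1725 with vehicle, 2.72% (2.01 to 3.61). These barcodes held 36 and 1093 Mki67 UMIs, against 461 and 408 in the kept cells. Klf1, a transcription factor of red cell precursors, had 0 and 116 UMIs there, and 38 of the 47 vehicle barcodes had over 10% hemoglobin beta UMIs.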

How the results depend on the processing

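The main counts were 6 pairs of gene and class higher and 14 lower, with 3 members higher and 0 lower in MuSC-like cells. The lower pairs fell to 9 without doublet removal, without the hemoglobin filter and at 2-fold, while the higher pairs were 11 at a doublet rate of 15% and 0 at 2-fold. In MuSC-like cells 1 member remained higher without the 10 cells richest in each gene and 0 at 2-fold. There, 1 was lower without cells with a Mki67 or Top2a UMI. Mki67, whose vehicle UMIs lay in 5 MuSC-like cells, had no ratio when rich or marker-carrying cells were left out. It could not be counted in those settings.

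Directions reversed mostly in small or mixed classes. For Cdkn1c in MuSC-like cells the log2 ratio became -0.43 without the 10 richest cells, -0.51 without Myog cells, -0.16 as a mean of log-normalized values and -0.00137 without the hemoglobin filter. Without doublet removal it became 0.43 for Cdkn1b in glial-like cells, 1.76 for Ccnd2 and 1.31 for Cdkn1b in neutrophil-like cells, and 0.17 for Cdkn1a in perineurial-like cells. A doublet rate of 15% gave 0.12 for Cdkn2b in FAP-like cells, and no hemoglobin filter 1.32 for Cdkn1b in neutrophil-like cells. A mitochondrial limit of 10% gave 0.71 for glial-like Cdkn1b and 0.23 for perineurial-like Cdkn1a. A higher minimum of genes per cell gave -0.13 for Cdkn1a and 0.80 for Cdkn1b in neutrophil-like cells. No maximum of genes gave 0.48 for FAP-like Cdkn2b, 0.63 for glial-like Cdkn1b and 0.11 for perineurial-like Cdkn1a, which was 0.14 at a resolution of 1.6. Cells assigned by own markers gave 1.495 for lymphatic endothelial-like Ccnd3, -0.22 for macrophage-like Ccnd2, 1.80 for neutrophil-like Cdkn1b and 0.60 for perineurial-like Cdkn1a. The cause of these reversals was not tested.

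The share of cells called by Mki67 and Top2a, 1.49% with ATRA+agonist and 1.14% with vehicle, was 0.420% and 0.431% with both markers required, 4.23% and 3.35% with either, 38.4% and 33.6% with 5 UMIs of the S and G2/M lists, and 0.447% and 0.362% after thinning. The highest Cdkn2a level of a cluster, 73.0 CPM, was 34.0 CPM without doublet removal, 34.8 at a 15% doublet rate, 33.4 without the hemoglobin filter, 35.1 without a maximum of genes, 12.9 at a resolution of 0.4 and 41.8 at 1.6. No paired analysis was possible because each group is 1 library.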
